A study of Mus musculus with 10 samples.

Results

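The testis sample was 1 of 10 tissue samples in a splicing-array study of mice of the outbred CD1 strain, and it was set against the median of the other 9. It was taken by its title. The comparators, as their titles spell them, were spleen, salivary, muscle, lung, liver, kidney, intestine, heart and brain. Every sample was total RNA pooled from CD1 mice. The labels used here name no age, sex, further genotype or treatment, and no number of animals per pool. With 1 sample per tissue there were no replicates, so no difference was tested and every count below describes these 10 arrays.

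Testis holds germ cells at all stages from dividing spermatogonia through meiosis to the remodelling spermatid, together with supporting Sertoli cells and hormone-producing Leydig cells. It is known for a large set of transcripts made in no other organ and for splice forms particular to germ cells. In an alternative exon, the spliceosome either joins the exon to both neighbours or joins the neighbours directly and leaves it out. The balance depends on regulatory proteins whose amounts differ between tissues.

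The array followed 3126 such exons, called events and numbered Ben in the deposited table. Body probes lay in the flanking exons (C1 and C2) and in the alternative exon (A). The junction probes C1:A and A:C2 detect inclusion and C1:C2 detects skipping. A seventh probe is marked INT, and what it measures is not given in the sources used here. The table pairs no event with a gene, so tissue markers could not be looked up and no gene is named. In bulk tissue, fewer cells of a type and less RNA per cell cannot be told apart.

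Values were a score on a compressed scale of unstated base that never falls below 0, so differences are given in score units and not as folds. Arrays were centred to a common median of 2.12, which moved none by more than 0.0818 units. Testis was not dim or unusual in its middle values: its median was 2.116 as deposited, within the 2.04 to 2.19 of the other tissues, and 1.38% of its probes read 0, within 0.635% to 3.33%. Its 95th percentile was the highest of the 10 arrays, 5.08 against 3.93 to 4.94 elsewhere. The 95th percentile of INT probes over all arrays, 3.14 units, is used below as a brightness mark.

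Level was taken as the mean of C1 and C2, the exons present in both splice forms. An event was called where testis differed by 2.15 units or more from the comparator (the median over the other 9), which is 4 robust SDs of such deviations over all 10 tissues. By this measure 210 events, 6.72% of all, were higher in testis and 5, or 0.16%, were lower. In the other tissues, each set against its own 9 comparators in the same way, higher calls ranged from 20 in lung to 119 in liver and made up 1.74% pooled. Lower calls ranged from 1 in lung to 10 in brain and made up 0.139% pooled. Testis thus stood out in higher calls alone, and 3 tissues had more lower calls than testis. Values stop at 0, and 66.1% of events had a comparator high enough for a lower call if testis read 0. Only 1.38% of testis probes read 0, and the 5 lower events had comparators of 3.05 or more. The room for lower calls was therefore smaller than that share.

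**Figure D1:**
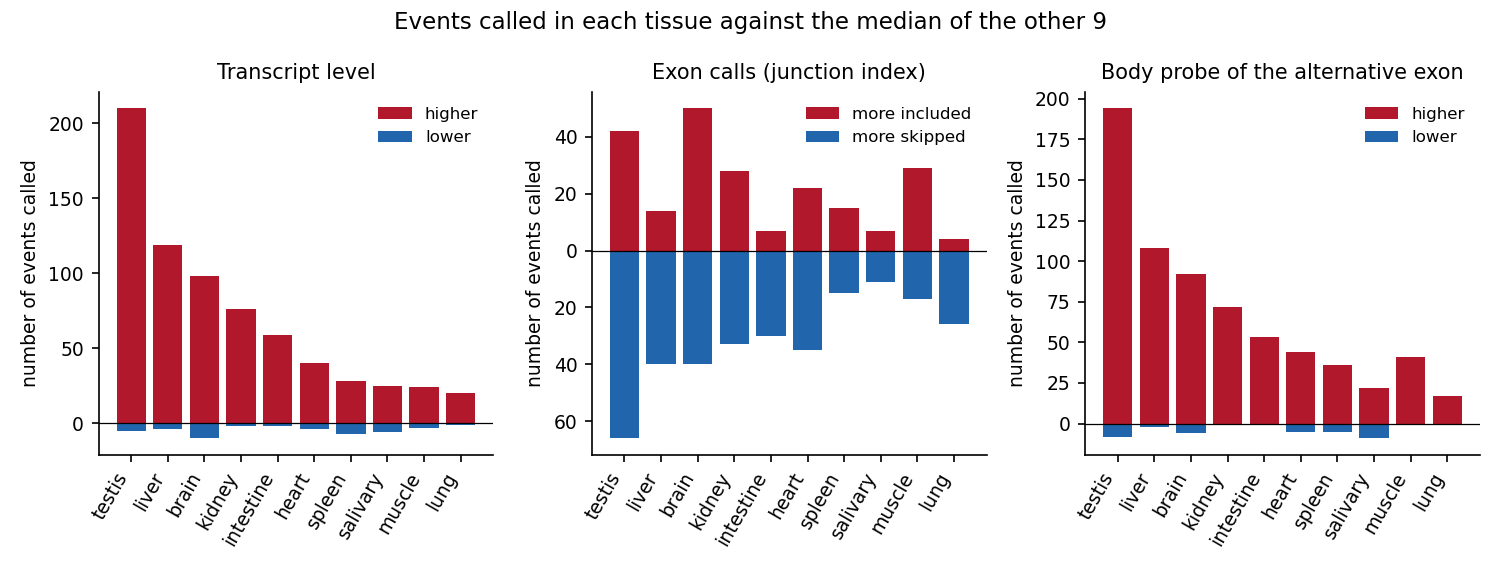
Number of events called in each tissue against the median of the other 9, for transcript level (left), exon calls by the junction index (middle) and the A body probe (right). Red bars above 0 count higher or more included events and blue bars below 0 count lower or more skipped ones, with 1 sample per tissue. Testis has the tallest red bars for level (210) and A (194) and the longest blue bar for skipping (66), while brain has more included exons (50) than testis (42).

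The 210 events were mostly bright in testis and dim in the comparator, as the call favours. Their level in testis ran from 2.71 to 7.72 with a median of 5.23, whereas their comparator had a median of 1.94. In 208 of them testis lay above the brightness mark. In 104 no other tissue did, in 61 another 1 or 2 did, in 41 between 3 and 8 did, and in 4 all 9 did. Testis was the highest of the 10 tissues in 198, or 94.3%, against 77.7% of the higher calls in the other tissues pooled. In 86 it was above the next highest tissue by the full threshold, a count that was 31 in brain and 24 in liver. The next highest tissue was liver in 50 events, brain in 48, kidney in 30 and spleen in 26, and muscle in 6, the fewest. Over all events liver and brain were also the other tissues most often highest in level, in 445 and 440, against 177 for muscle. The order is therefore not a likeness to testis by itself.

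Higher calls came mostly from events with a dim comparator, which the rule favours because the comparator is subtracted to make the call. With events split by the comparator's level into 4 groups of 781 or 782, 101 of the dimmest group were higher in testis, then 53, 38 and 18 in order of brightness. Such counts were not computed for the other tissues, so they do not set testis apart. Judged by the brightness mark alone, 1022 events had a level above it in testis, against 755 in salivary to 1052 in kidney. Of these, 190 were above it in no other tissue. The same count was 141 in brain and at most 60 in the remaining tissues. Testis therefore did not have the most events above the mark, but it had the most that were above it alone.

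**Figure D2:**
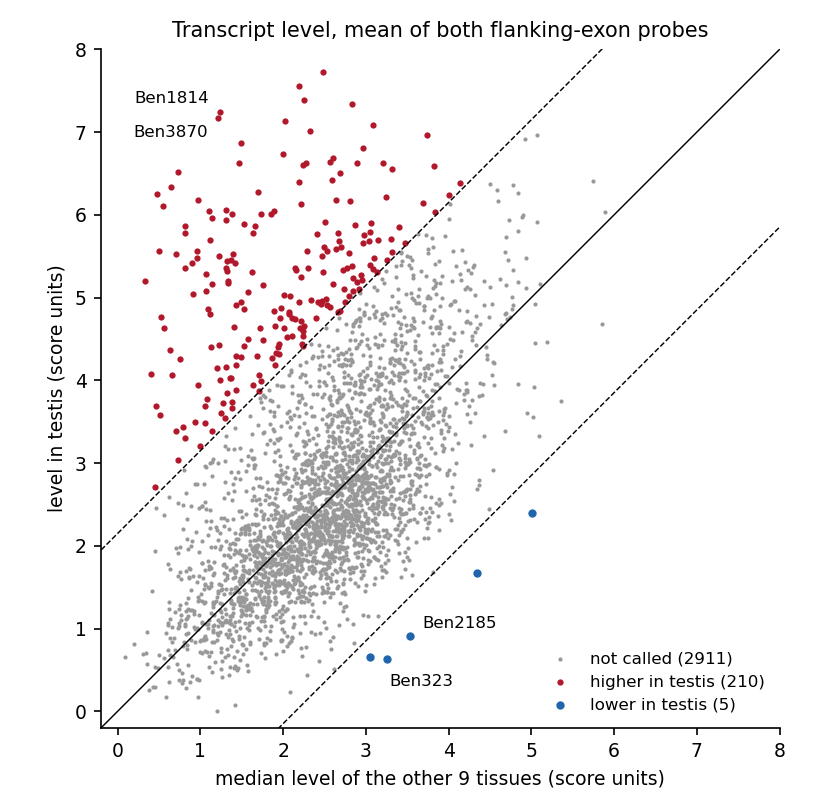
Level of each event in testis (vertical) against the median of the other 9 tissues (horizontal), in score units, 1 point per event. The solid line marks equality and the dashed lines the threshold of 2.15 units. The 210 higher events (red) spread far above the upper line at low comparator values, and the 5 lower events (blue) lie just past the lower line.

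Both flanking exons were brighter in most of these events, which the call favours, since level is their mean. The same share among higher calls in the other tissues was not computed. C1 and C2 each passed the threshold for single probes, 2.11 units, in 156 of the 210, and 1 of them alone did in the remaining 54. Over all events 216 C1 probes and 262 C2 probes were high in testis. The 157 events with both made up 72.7% of the C1 set and 59.9% of the C2 set. In 24 events C1 was high with C2 within 1.05 units of the comparator, and in 38 events C2 was high with C1 within that range.

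The events with the highest level deviations, with both flanks past the threshold, were Ben1814 and Ben3870. Ben1814 had a level of 7.25 in testis, and in the other tissues it lay between 1.06 in salivary and 1.98 in lung, with a median of 1.23. No tissue came near testis, and the difference was 6.02 units. Its C1, A and C2 probes were higher by 6.10, 5.08 and 5.68 units, and its INT probe by 0.0053. Probes for both splice forms were bright: C1:C2 read 6.95 against a median of 3.17, and C1:A 7.38 against 2.94. These 2 medians lay above the median level of 1.23, while A:C2 read 5.98 against 0.676. What the 2 probes read in the other tissues was not tested. Ben3870 had a level of 7.17 in testis and 0.964 in lung to 1.87 in brain elsewhere, a difference of 5.95 from the median of 1.21. Its inclusion junction C1:A read 7.03 against 0.425, and its skipping junction C1:C2 read 5.94. The skipping junction of Ben3870 was also visible in brain, at 3.32, whereas the remaining tissues lay between 0.0186 and 0.673.

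Of the 5 lower events, testis was the lowest tissue in 4, and their deviations ran from -2.39 to -2.67. The lowest with both flanks past the threshold were Ben323 and Ben2185. Ben323 had a level of 0.629 in testis, 2.40 in muscle at the lowest elsewhere, a median of 3.26 and 4.70 in lung at the highest. Its C1:C2 junction was also lower, 1.42 in testis against 2.31 to 4.66. Ben2185 had a level of 0.907 in testis and 2.52 in intestine to 4.46 in heart elsewhere, with a median of 3.53. Its A probe was dim in every tissue, at most 0.318, so the lower level was a matter of the flanks and of C1:C2, which read 2.30 against a median of 3.62. Testis did not overlap the other tissues in either event.

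The junction probes describe which splice junctions were brighter in the higher events. Their brightness does not give the share of each splice form. In 86 of the 210, or 41.0%, the mean of the inclusion junctions and the skipping junction both passed the threshold for single probes. In 51 the inclusion junctions alone did, in 40 the skipping junction alone and in 33 neither. The A probe followed the inclusion junctions. It was called higher in 79 of the 86 events with both forms and in 39 of the 51 with inclusion alone, but in 5 of the 40 with skipping alone, where its median deviation was 0.739. In the other 9 tissues pooled, 31.7% of the higher events had both forms, 22.5% inclusion alone, 19.2% skipping alone and 26.6% neither. The share with neither was 15.7% in testis. Liver, the tissue with the next most higher events, had 43.7% with both and 15.1% with neither, close to testis.

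Exon inclusion was measured by the junction index, which subtracts C1:C2 from the average of the 2 inclusion junctions. An exon was called where the index lay at least 1.61 units from the comparator and where A minus level, the body index, deviated with the same sign. Where A and the inclusion junctions stay dim, brighter flanks and a brighter C1:C2 lower both indices together. The body index therefore cannot separate more skipping from a higher level of a transcript that is skipped everywhere. In testis 42 of 2702 testable exons, 1.55%, were more included and 66, or 2.44%, were more skipped. Pooled over the other tissues the shares were 0.717% and 1.01%. Brain had more included exons, 50, and no other tissue had more than 40 skipped ones, the number in brain and in liver. Testis thus had the most skipped calls and not the most included calls, and after quantile normalization brain had more skipped calls too, 46 against 40.

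The index in testis was above all 9 others in 35 of the 42 included exons and below all 9 in 61 of the 66 skipped ones, 83.3% and 92.4%. Exons were called for their distance from the other tissues' median, and pooled over the other tissues the same shares were 73.3% and 77.3%. Set against the most extreme other tissue by the full threshold, 8 included and 20 skipped exons remained. Over all events, without the filter or the body index, this distance was met by 12 events upward and 25 downward in testis. The same counts were 9 and 19 in brain and 11 and 3 in kidney. Brain was the nearest tissue in 10 of the included exons, kidney in 8 and spleen in 7. For the skipped exons the nearest were liver in 13, heart in 12, and brain and kidney in 10 each. Over all events brain was, of the other tissues, most often highest in the index, in 476. Heart was most often lowest, in 499, with liver lowest in 286. A further 21 testable exons passed the index threshold with a body index of the opposite sign, 14 upward and 7 downward, and were not called.

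**Figure D3:**
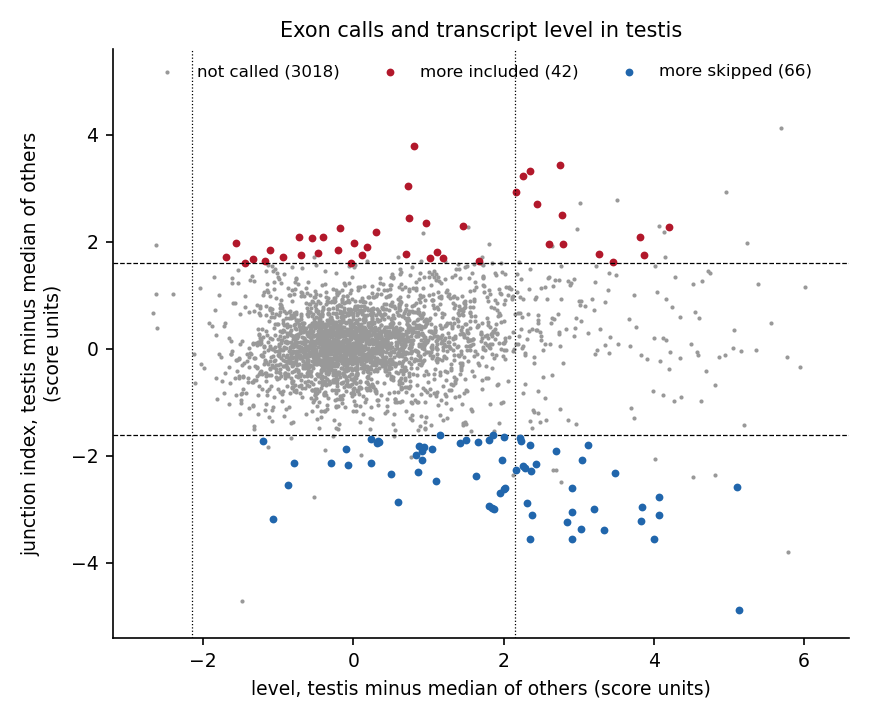
Deviation of the junction index in testis (vertical) against the deviation of level (horizontal), in score units, 1 point per event. Dashed lines mark the index threshold and dotted lines the level threshold, and grey points past a dashed line failed the filter or the body index. Of the 66 skipped exons (blue), 29 lie right of the level threshold, against 13 of the 42 included ones (red).

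Most skipped exons shared a combination of probes that the calling rule favours, since the same probes enter it. Their C1:C2 junction was higher by a median of 2.34 units, C1 by 2.01 and C2 by 1.87, whereas the medians were 0.15 for A, 0.239 for C1:A and 0.0494 for A:C2. In 61 of the 66, C1:C2 was higher by at least 1.05 units while the inclusion junctions were not lower by as much. In 1 exon both moved, in 1 the inclusion junctions alone were lower, and in 3 neither moved by that much. Most skipped calls in testis were therefore a brighter skipping junction beside inclusion junctions near their brightness elsewhere. The same combination made up 90.3% of skipped calls in the other tissues pooled, a share close to the 92.4% in testis. The comparator's inclusion junctions were above the brightness mark in 5 of the 66.

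The included exons were more mixed. In 27 of the 42, or 64.3%, the inclusion junctions alone moved by at least 1.05 units. In 8 the skipping junction alone did, in 2 both and in 5 neither. Inclusion junctions alone made up 70.5% of included calls in the other tissues pooled, so testis did not stand out. A:C2 was higher by a median of 2.36, A by 1.93 and C1:A by 1.33, and C1:C2 deviated by -0.192. Both inclusion junctions deviated upward relative to C1:C2 in 37 of the 42, and each passed the index threshold in 19. The index averages these 2 differences, so the call favours their agreement.

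**Figure D4:**
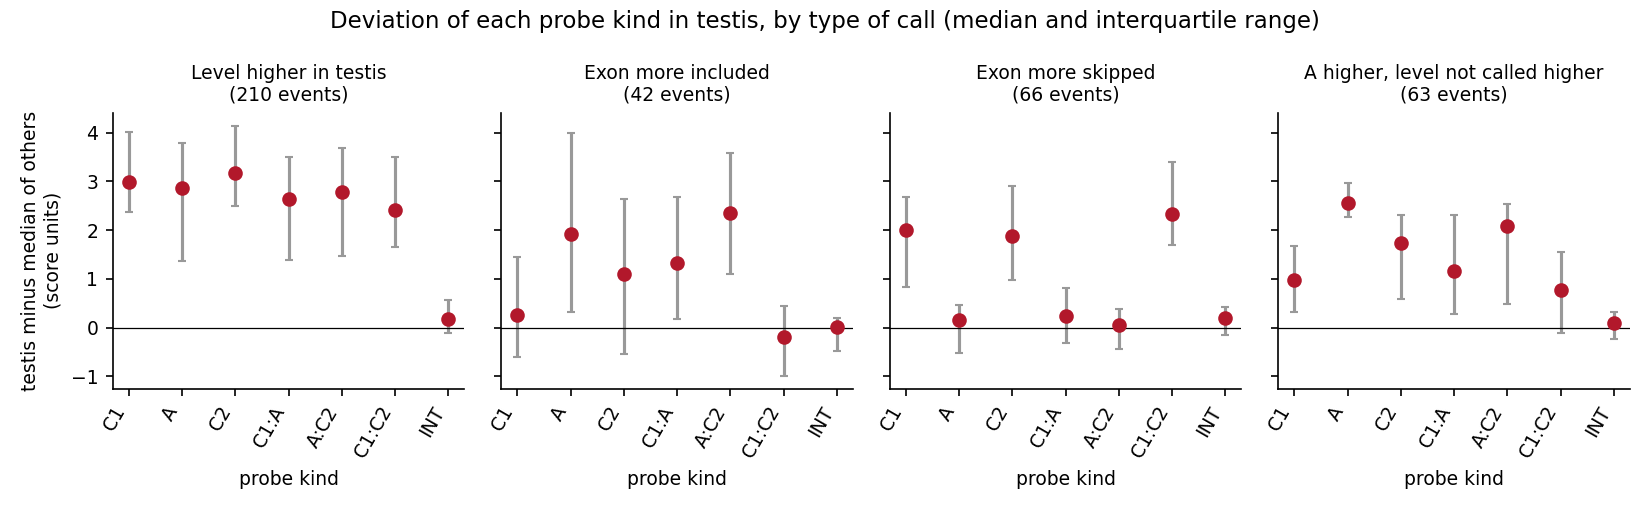
Deviation of each probe kind in testis from the median of the other 9 tissues, in score units, for 4 groups of called events. Points are medians over events and bars the interquartile range over events, which are not replicates. In the skipped group C1, C2 and C1:C2 stand near 2 units and A, C1:A and A:C2 near 0, and INT stays near 0 in every group.

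Of the skipped exons 29, or 43.9%, lay in events whose level was also called higher, and of the included exons 13, or 31.0%. Pooled over the other tissues these shares were 28.3% and 11.9%, while liver stood at 37.5% and 50% with 40 and 14 calls. Among all testable exons 5.92% lay in such events in testis and 1.63% in the others pooled, so higher events were more frequent in testis to begin with. These differences were not tested. In the 29, C1:C2 was higher by a median of 3.25 units and A by 0.401. In the 13, the median deviation was 4.15 for A and 1.14 for C1:C2, and C1:C2 passed the threshold for single probes in 3 of them.

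Among exons in transcripts without a level call, 29 more included and 37 more skipped, the shift lay mostly in 1 form. In 32 of the 37 the skipping junction alone moved by at least 1.05 units. In 14 of the 29 the inclusion junctions alone did and in 8 the skipping junction alone. The included exons had A higher by a median of 0.897 and A:C2 by 1.36, with C1:C2 deviating by -0.531. The skipped exons had C1:C2 higher by 2.0, with A at -0.188 and C1:A at -0.266. Their flanks were not flat, as C1 and C2 were higher by medians of 1.01 and 1.06.

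Named exons were taken from these transcripts, with both junctions agreeing, flank means above the brightness mark in testis and in the comparator, and an index outside the range of the other tissues, which 7 included and 12 skipped exons met. Ben1174 was the leading included exon. Its flanks were bright everywhere: level was 5.46 in testis and 3.44 in kidney to 5.88 in liver, so testis lay inside the range. Its A probe read 4.59 in testis and at most 2.13 elsewhere, in intestine, and was a deposited 0 in brain. C1:A read 4.83 in testis against 0.522 in brain to 3.73 in spleen, and A:C2 4.09 against at most 1.78. The skipping junction did not share in this, at 4.90 in testis and a median of 5.0 elsewhere. The index was -0.438 in testis and between -4.78 and -1.75 in the others, a difference of 3.04 from their median. Inclusion and skipping junctions of this exon were thus both bright in testis, and the skipping junction alone was bright in most other tissues.

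Ben2033 showed the same form at a lower level. Its index was 0.464 in testis and between -2.59 in lung and -1.73 in intestine elsewhere. The body index set testis less apart, at 0.415 against 0.354 in muscle, with -0.486 in liver next. The A probe read 4.60 in testis and 1.70 to 2.97 in the others, and A:C2 3.62 against 0.605 to 1.59. C1:A was bright in brain too, 3.72 against 4.67 in testis, but brain had a C1:C2 of 4.71, the highest of the tissues. In testis C1:C2 read 3.68, near the median of 3.82.

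The leading skipped exons were Ben1713 and Ben3898. In Ben1713 the index was -3.58 in testis, with kidney at -2.76 and liver at -2.62 next and salivary at 0.252 the highest. The level of this transcript was highest in testis at 5.39, followed by liver at 4.72, heart at 4.27 and kidney at 4.25. C1:C2 read 4.70 in testis and 1.64 to 3.97 elsewhere, while A stayed between 1.70 and 2.43 in all 10 tissues. Both inclusion junctions were below the brightness mark in every tissue. C1:A read 0.661 in testis and 0.0186 to 1.04 elsewhere, and A:C2 1.59 against 1.42 to 2.93. Whether the index of Ben1713 followed its level was not tested. Because the other tissues were spread widely, the difference of -2.99 depended on the comparator and was -2.42 against their mean. Ben3898 differed in that its inclusion form was seen elsewhere. Its A probe read 4.51 in heart and 4.28 in muscle but 1.77 in testis, the lowest of the tissues, and A:C2 read 4.68 in muscle, 4.66 in heart and 1.78 in testis. C1:C2 was highest in testis at 5.18, with liver at 4.72. The index was -4.01 in testis and -2.65 in kidney to 0.715 in heart elsewhere.

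**Figure D5:**
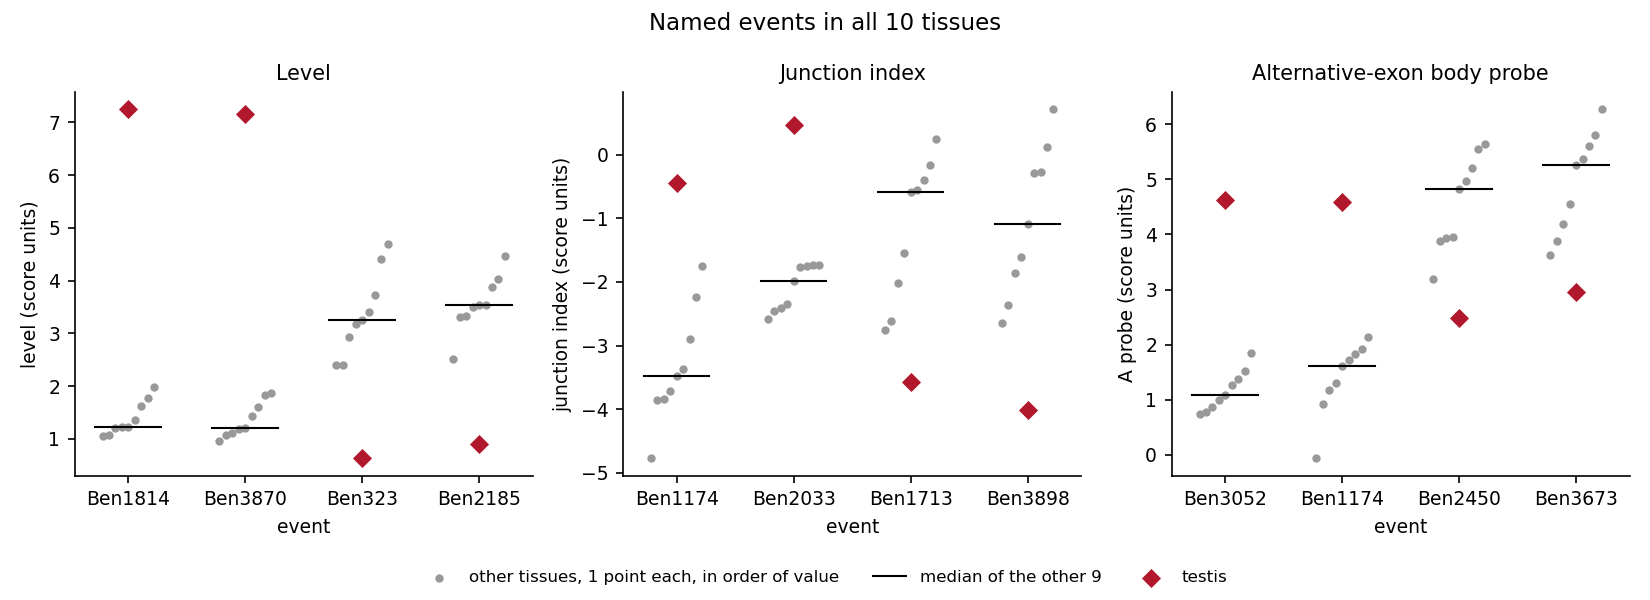
Values of the named events in all 10 tissues, in score units, for level (left), junction index (middle) and the A body probe (right). Red diamonds are testis, grey points the other tissues with 1 sample each, and black lines the median of those 9. Testis lies outside the range of the other tissues in all 12 columns, which the naming rule required for the index, most narrowly in the lower A probes Ben3673 and Ben2450.

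The A body probe alone gave 194 higher events in testis, 6.21% of all, and 8 lower ones, 0.256%, at a threshold of 2.16 units. The other tissues pooled had 1.72% and 0.107%, and higher calls ranged from 17 in lung to 108 in liver. Testis was above every other tissue in 184 of the 194 and below every other tissue in all 8. Over all events it was the highest in A in 20.7% and the lowest in 12.7%. A probes were called for their distance from the other tissues' median, which favours such positions. The same shares for A calls in the other tissues were not computed. Most of these calls went with a higher transcript level, since 131 of the 194, or 67.5%, lay in events with a higher level. In the other tissues pooled 257 of 485 higher A probes did, and in liver 78 of 108. Both inclusion junctions were high with A in 118, 1 of them in 45 and neither in 31. Conversely, of the 210 events with a higher level, 49 had an A probe within 1.08 units of the comparator, and in 31 of these C1:C2 was high.

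The 63 higher A probes in transcripts without a higher level call were an intermediate group. A was higher by a median of 2.55 units, but C1 by 0.972 and C2 by 1.73, so the flanks were also brighter, mostly short of the threshold. In 20 the level lay within 1.07 units of the comparator. The index was called more included in 7 of the 63.

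With flanks bright and within the single-probe threshold on each side, 7 higher and 2 lower A probes remained. Ben3052 was the highest. Its A probe read 4.63 in testis and 0.741 in lung to 1.85 in spleen elsewhere, a difference of 3.55 units with no overlap. Its 2 inclusion junctions disagreed. A:C2 read 4.45 against at most 1.13, whereas C1:A read 1.41, near the 1.38 of liver. The index deviated by 1.35, short of the threshold, so this exon was not among the called ones. The second highest was Ben1174, described above. Neither of the 2 lower probes lay in an event called lower in level, and their flanks deviated downward too. In Ben2450 A read 2.48 against 3.19 to 5.64, with C1 lower by 2.09 and C1:C2 by 2.39, and its index deviated by -0.15. In Ben3673 A read 2.96 against 3.63 to 6.27, with C2 lower by 2.08 and C1 by 0.84, while C1:C2 read 1.81, inside the 1.29 to 3.76 of the other tissues. Both A calls depended on the comparator, as Ben2450 fell short of the threshold in 7 of 12 alternatives, at -2.10 to -1.92, and Ben3673 in 6 of 12, at -2.00 to -1.95. Of all 8 lower A probes, 2 lay in events with a lower level and 2 in events whose level was within 1.07 units of the comparator.

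Ranks need no threshold or comparator. Testis was the highest of the 10 tissues in level in 680 events, 21.8%, and the lowest in 488, 15.6%, against at most 445 (liver) and 386 (spleen) for any other tissue. The gap to the next tissue had a median of 0.683 units where testis was highest and 0.25 where it was lowest. For the A probe testis was highest in 646 events and for the index in 604, 19.3%. It was lowest in the index in 392 events, fewer than heart, which was lowest in 499. After quantile normalization the balance in level turned, with testis highest in 519 events and lowest in 584, still the most of any tissue on each side. In the index testis was then highest in 475 events and brain in 561.

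Testis was also set against each tissue singly. The level was at least 2.15 units higher in testis than in kidney in 165 events and than in salivary in 271, the lowest and highest of 9 counts. It was lower by as much in 138 events against liver and in 41 against spleen. The median absolute difference in level lay between 0.617 (kidney) and 0.695 (lung). In the index it lay between 0.432 (brain) and 0.482 (heart). These comparisons share the testis sample. The INT probes, which set the brightness mark but enter neither level, index nor A, were high in testis in 32 events, 1.02%, against 0.416% pooled over the other tissues and 31 events in spleen, and in 1 of the 210 events with a higher level.

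These counts depended on how arrays were scaled. After quantile normalization, which gives every array the same distribution, 125 events were higher and 7 lower in level, 33 exons were more included and 40 more skipped, and 130 A probes were higher. All 125 were among the 210, and all 40 among the 66, while 27 of the 33 were among the 42. Testis still had the most higher events in level, ahead of brain with 111, but brain had 92 exon calls against 73 in testis. This scaling moved the median level deviation of testis from 0.0462 to -0.0937. A further filter required the inclusion and the skipping junctions each to exceed the brightness mark, in testis or in the comparator. It left 12 included and 11 skipped exons. The inclusion junctions exceeded the mark in 9 of the 66 skipped exons in testis and in 5 in the comparator. The skipping junction did so in 11 and 12 of the 42 included exons. The filter thus removed calls for their dim form and cannot decide whether skipping was in excess among bright junctions.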

How the data were processed

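The deposited values are a score per probe, 21882 probes in each of 10 samples, from the series matrix value table. What the authors did to make the deposited score (scanner, dyes, background correction, normalization, base of the scale) is not given in the sources used here, and probe sequences and gene names were not used. The number of arrays, 1 per tissue, limits the precision, and no p-value was computed. Arrays were shifted to one median. Deviation is testis minus the median of the other 9 tissues. Thresholds were 4 robust SDs (median absolute deviation times 1.4826) over all events and tissues. The robust SD was 0.537 for level, 0.402 for the index, 0.541 for A and 0.527 for all probes. Exons were testable where the mean of C1 and C2 exceeded 1.24, the lowest 25% of all values, in testis and in the comparator. At most 2 higher and 2 lower events per measure were named, by size of deviation among events whose probes agreed. The comparison, measures and naming rules were chosen with earlier results of these data known. On simulated data with known shifts the calls were checked first, with thresholds from the robust SD of testis alone. There a higher level raised all 6 exon and junction probes. The check therefore did not cover a higher level beside inclusion junctions that stay dim. Python 3.11.15, numpy 2.4.6, pandas 2.3.3 and matplotlib 3.10.9 were used.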

Additional observations from a re-analysis of the deposited data

How the results depend on the processing

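The main limits are 1 pooled sample per tissue, a scale of unstated base with a floor at 0, and junction probes that were often dim. No tissue was sampled more than once. The labels used here do not say whether tissues came from the same animals, so no paired analysis was made. The requirement that each flank be bright, rather than their mean, was chosen after seeing the data and left 34 included and 58 skipped exons, and the counts after quantile normalization for each tissue were also added then. The named deviations kept their direction in all 144 values under the other scalings and comparators tried, and 133 moved by less than 1 robust SD, but Ben2450 and Ben3673 fell short of the threshold for A in 7 and 6 of 12 alternatives, among them the mean of the other tissues and the comparator without kidney, liver or spleen. The other 11 included Ben1713, at -2.42 to -2.53 against the mean, after quantile normalization or with any 1 of 5 tissues left out. Quantile normalization moved the events with testis highest in level from 680 to 519 and lowest from 488 to 584, so lowest then outnumbered highest. The ranks of every tissue under it were added after seeing the data. Leaving each other tissue out of the comparator in turn, higher level calls ranged from 199 to 217, lower ones from 6 to 9, included exons from 40 to 49, skipped exons from 62 to 66 and higher A probes from 185 to 205, lower ones from 6 to 11. Lower level calls were few and less stable, 8 without muscle, 9 without spleen and 9 with C1 alone as level. Other thresholds change counts by construction. At 3 robust SDs there were 345 higher and 35 lower events in level, 110 included and 102 skipped exons, and 324 higher and 38 lower A probes. At 6 robust SDs these were 85, 0, 9, 27, 89 and 0. With the robust SD of testis alone, which is wider than that of the other tissues, they were 79, 0, 14, 40, 106 and 0. Against the most extreme of the other tissues they were 86, 0, 8, 20, 85 and 0. Quantile normalization gave 125 higher events in level and 40 skipped exons, and the cause was not tested. With junctions above the brightness mark, fewer exons could be called, 12 included and 11 skipped.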
